A study of Homo sapiens with 6 samples.

Results

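A set of 10 genes of the integrated stress response was followed through 6 RNA sequencing libraries of OCI-AML2, a human line long established from acute myeloid leukaemia. They were chosen by gene symbol, as the transcription factor ATF4 with its best-known partners and effectors, out of 13002 genes in the deposited tables: ATF4, ATF5, ATF3, DDIT3, TRIB3, PPP1R15A, ASNS, CHAC1, DDIT4 and SESN2. All 10 were listed in both deposited tables, and all 10 passed the filter on low values (1 RPKM or more on average in the libraries compared). RPKM is reads scaled by gene length and library depth. CHAC1 lay below 1 RPKM in all 4 knockdown libraries and passed that filter through its control levels alone.

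The study lowered TAZ, which encodes tafazzin, a mitochondrial acyltransferase that matures the lipid cardiolipin. Cells received by lentivirus either a control hairpin, TAZ shRNA1 or TAZ shRNA2, and in every group 3 days of selection followed, in 2.0 µg/mL puromycin. Each of the 3 groups has 2 libraries, lettered A and B, and no untransduced cells were analysed here. By its label the control hairpin is a scramble, whereas the control columns of the tables are named GFP. The line is 1 cell line, and no label states whether A and B were separate cultures; the p-values therefore measure only library-to-library spread, which may be technical.

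The integrated stress response starts when a stress-sensing kinase phosphorylates the translation initiation factor eIF2. Most protein synthesis then slows, while the ATF4 messenger RNA is translated more, so ATF4 protein can change without a change in its transcript; protein was not measured here. ATF4 binds DNA as a dimer with other bZIP proteins and raises genes for amino acid supply, redox balance and, under lasting stress, cell death. In leukaemia cells, as elsewhere, the same response is known to be set off by amino acid shortage, misfolded protein and mitochondrial damage.

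ATF4 often binds a composite of a C/EBP and an ATF site, with the core TGATGNAA, and relatives such as ATF3 bind the CRE-like element TGACGTNA. The promoters of the 10 genes were searched for these letters on both strands, from 250 bases before to 50 bases after each RefSeq start (build GRCh38.p14). The genes were chosen as ATF4 and its best-known partners and effectors, so the shares below are a description and no test. All 10 genes matched, with 18 windows. The first core was found in 3 of 18 windows (16.7%), against 2.04% of the 14826 windows of genes in the tables and 3.62% of all 35116 windows. Counted by gene, 3 of 10 held it, against 2.75% of 10257 genes in the tables. The CRE-like element was found in 1 of 18 windows (5.56%), against 4.24% of windows of genes in the tables and 3.01% of all. The 4 stretches that hold a match are shown because they are where the letters of the known ATF4 and CRE elements stand in these genes; each runs 5′ to 3′ on the gene's strand, with the match in capitals.
ASNS: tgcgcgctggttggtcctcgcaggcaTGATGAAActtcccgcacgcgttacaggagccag
CHAC1: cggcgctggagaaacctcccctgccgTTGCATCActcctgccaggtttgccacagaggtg
ATF3: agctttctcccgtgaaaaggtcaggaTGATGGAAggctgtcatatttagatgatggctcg
PPP1R15A: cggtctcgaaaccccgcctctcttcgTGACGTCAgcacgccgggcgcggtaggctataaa
The ASNS stretch is chr7:97872443-97872502 on the minus strand, with the match 68 bases before the start. The CHAC1 stretch, chr15:40953236-40953295 on the plus strand, holds the core read from the other strand, 209 bases before the start. The ATF3 stretch, chr1:212565190-212565249 on the plus strand, has its match 191 bases before the start, in 1 of its 2 windows. The PPP1R15A stretch, chr19:48872337-48872396 on the plus strand, holds the CRE-like palindrome 58 bases before the start. The windows of the other 6 genes held neither set of letters, which says nothing about sites outside these windows or of other spelling. A match is a description of letters, not a measured binding site.

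The libraries had 18820542 to 20980885 reads in listed genes, of which the 10 most abundant genes took 8.01% to 9.14%. TAZ itself stood at 11.3 and 11.9 RPKM in controls A and B, at 4.02 and 4.10 RPKM under shRNA1 and at 1.47 and 2.13 RPKM with shRNA2. Of 16 myeloid markers 15 were listed (CD34 was not). Their summed level was 1105 to 1260.2 RPKM in the control, 5276 to 5817 RPKM with shRNA1 and 4009.6 to 4776 RPKM with shRNA2. The part of that shift in the results below was not tested. Of the markers of other cells, 4 of 5 for B cells summed to between 1.31 and 5.0 RPKM, 2 of 6 for T and NK cells to between 7.0 and 10.6 RPKM, and PECAM1, the listed 1 of 6 for fibroblasts and endothelium, lay between 6.82 and 22.7 RPKM. None of 5 erythroid and 5 epithelial markers was listed. The samples are bulk RNA, in which fewer cells of a type and less RNA per cell cannot be told apart.

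With TAZ lowered, 8 of the 10 genes fell with shRNA1 and 6 of 10 fell with shRNA2, and none rose with either. Adjusted p below 0.05 in limma, with Benjamini-Hochberg adjustment over all genes, was the threshold. Among all genes tested 8.58% fell and 9.99% rose with shRNA1, and 7.61% fell and 8.12% rose with shRNA2. The 6 that fell with both hairpins were ATF4, ATF5, ATF3, TRIB3, DDIT4 and CHAC1, while 3.3% of the 10501 genes tested in both comparisons fell with both. The hairpins were compared with the same control libraries, so the 2 counts are not independent. CHAC1 is in all these counts, although it passed the filter through its control levels alone. It could therefore enter the test only as a fall. At a filter of 5 RPKM, which left CHAC1 out, 7 of 9 genes fell with shRNA1 and 5 of 9 with shRNA2. At that filter 1585 of all 7520 genes tested were called with shRNA1 and 1321 with shRNA2, in either direction. The median log2 fold change of the 10 genes was -1.39 with shRNA1 and -1.52 with shRNA2, beside 0.00 for all genes in each comparison. All were computed on log2(RPKM + 0.5), a scale that makes changes of low genes look smaller than they are.

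**Figure D1:**
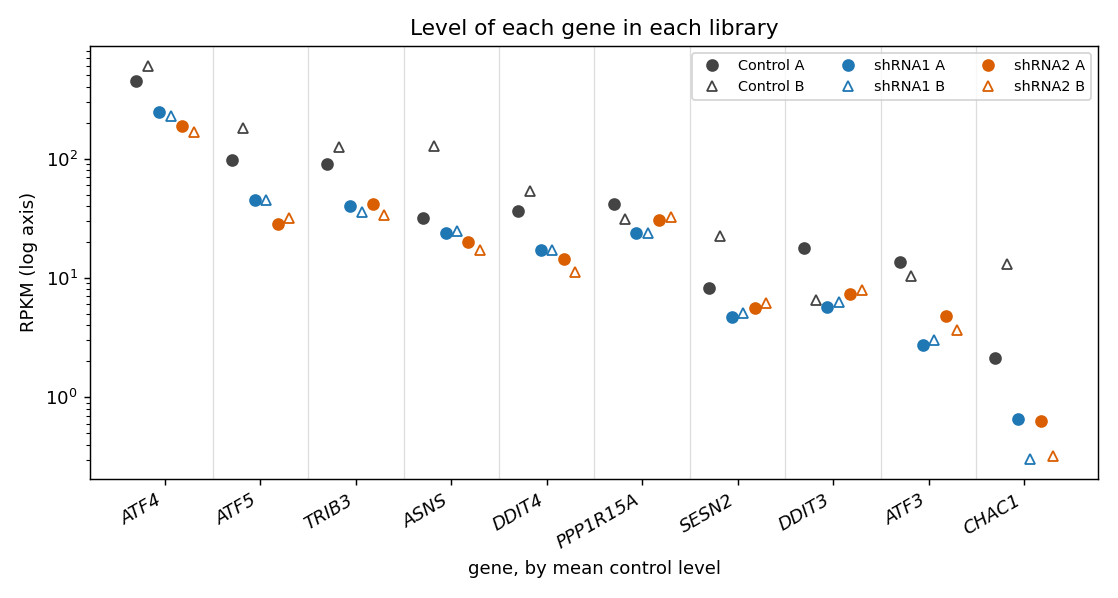
RPKM (log axis) of each of the 10 genes in each library, ordered by mean control level; filled circles are libraries A, open triangles libraries B, and colours give the group. For ATF4 and TRIB3 both control points stand above all 4 hairpin points, while for ASNS control A (31.6 RPKM) lies far nearer the hairpin points than control B (128 RPKM).

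ATF4, the factor at the centre of the response (gene ID 468), was the most abundant of the 10 transcripts. Its level was 451 RPKM in control A and 602 RPKM in control B, 244 and 226 RPKM with shRNA1, and 186 and 166 RPKM with shRNA2. Both controls stood above all 4 knockdown libraries, and the shRNA2 libraries lay below the shRNA1 libraries. These levels rest on 6763 to 24733 reads per library. ATF4 fell 2.24-fold with shRNA1, from 527 ± 106 to 235 ± 12.7 RPKM (SD, n = 2), a log2 fold change of -1.15 (SE 0.17, limma adjusted p = 0.00768). Leaving out shRNA1 B ended that call, at -1.09 (limma adjusted p = 0.0595). With shRNA2 it fell 2.99-fold to 176 ± 14.3 RPKM, a log2 fold change of -1.56 (SE 0.21, limma adjusted p = 0.00568). Against control A alone these changes were -0.94 and -1.36, and against control B alone -1.35 and -1.77. Even at the lower levels 2.08% of genes with shRNA1 and 2.86% with shRNA2 had a higher level, compared with 1.12% in the control.

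ATF5 (gene ID 22809), a bZIP relative that is itself under translational control in this response, was lowest with shRNA2. It was measured at 97.3 and 181 RPKM in controls A and B, 45.3 and 45.1 RPKM with shRNA1, and 28.5 and 31.8 RPKM with shRNA2. The 3 groups did not overlap, although control B was 1.86 times control A. ATF5 fell 3.08-fold with shRNA1, -1.54 on the log2 scale (SE 0.26, limma adjusted p = 0.0104), and 4.61-fold with shRNA2, -2.12 (SE 0.27, limma adjusted p = 0.00499). Against control A alone the log2 fold changes were -1.10 and -1.68, and against control B alone -1.99 and -2.57.

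ATF3 (gene ID 467), an immediate stress-induced factor that is often a repressor, was a low transcript with the reverse order of the controls. Control A had 13.6 RPKM and control B 10.4 RPKM, shRNA1 2.76 and 3.00 RPKM, and shRNA2 4.78 and 3.65 RPKM. All knockdown libraries lay below both controls, and shRNA1 lay below shRNA2. ATF3 fell 4.15-fold with shRNA1, -1.87 on the log2 scale (SE 0.16, limma adjusted p = 0.00187), and 2.84-fold with shRNA2, -1.40 (SE 0.19, limma adjusted p = 0.00586). Relative to control A alone the log2 fold changes were -2.06 and -1.59, and relative to control B alone -1.68 and -1.21. The levels rest on 579 and 501 reads in control A and B, and on 136 to 222 reads in the knockdown libraries.

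DDIT3 (gene ID 1649) encodes CHOP, the factor of the lasting, pro-death phase of the response, and it had the widest gap of the 10 towards control A. Control A had 17.8 RPKM, from 375 reads, and control B 6.53 RPKM, from 156 reads. The hairpin libraries had 5.76 and 6.27 RPKM with shRNA1 and 7.34 and 7.86 RPKM with shRNA2. Control B therefore lay between the hairpin groups, and only control A stood apart from all the others. The log2 fold change was -0.80 with shRNA1 (SE 0.38, limma adjusted p = 0.176) and -0.49 with shRNA2 (SE 0.38, adjusted p = 0.404), and neither passed. Against control A alone the values were -1.49 and -1.18, and against control B alone -0.11 and 0.20, so with shRNA2 the sign turned with the control library.

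TRIB3 (gene ID 57761), a pseudokinase induced by ATF4 and CHOP that in turn dampens ATF4, fell by nearly the same amount with each hairpin. It stood at 90.0 and 125 RPKM in controls A and B, at 40.4 and 35.8 RPKM under shRNA1 and at 41.9 and 33.7 RPKM with shRNA2. Both controls were far above the 4 knockdown libraries, which overlapped one another. The fall was 2.82-fold with shRNA1, -1.47 on the log2 scale (SE 0.17, limma adjusted p = 0.00366), and 2.84-fold with shRNA2, -1.48 (SE 0.20, limma adjusted p = 0.00583). It was -1.23 and -1.25 against control A alone, and -1.70 and -1.72 against control B alone.

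PPP1R15A (gene ID 23645), known as GADD34, steers a phosphatase to eIF2 and so ends the response. Its levels were 41.4 and 31.1 RPKM in controls A and B, 23.6 and 23.8 RPKM with shRNA1, and 30.4 and 32.2 RPKM with shRNA2. The shRNA1 libraries lay below both controls, while shRNA2 straddled control B. PPP1R15A fell with shRNA1, -0.59 on the log2 scale (SE 0.15, limma adjusted p = 0.0381), the smallest of the 8 falls, and the call was lost without shRNA1 A (adjusted p = 0.125), without shRNA1 B (0.165) and without a variance trend (0.0538). With each control alone as the reference it was -0.79 (A) and -0.39 (B). The value with shRNA2 was -0.19 (SE 0.17, limma adjusted p = 0.46), -0.40 against control A alone and 0.0085 against control B alone.

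ASNS (gene ID 440), asparagine synthetase, the classical amino acid response gene, whose product lets cells make the asparagine that L-asparaginase therapy removes, had control libraries 4.05-fold apart. Control A had 31.6 RPKM, from 1334 reads, and control B 128 RPKM, from 6123 reads. With shRNA1 it stood at 23.6 and 24.8 RPKM, and with shRNA2 at 20.1 and 17.1 RPKM. All 4 knockdown libraries were below both controls, by little against control A and by much against control B. The log2 fold change of -1.38 with shRNA1 (SE 0.54, limma adjusted p = 0.11) and of -1.75 with shRNA2 (SE 0.53, adjusted p = 0.0621) did not pass. Against control A alone these values were -0.38 and -0.75, and against control B alone -2.38 and -2.76. Against either control library alone ASNS was called with both hairpins, in fits whose spread came from the 2 hairpin libraries alone.

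CHAC1 (gene ID 79094), an enzyme that degrades glutathione and a late target of the ATF4 and CHOP branch, had the widest gap between controls. Control A had 2.15 RPKM, from 60 reads, and control B 13.0 RPKM, from 410 reads. With shRNA1 it was at 0.653 and 0.304 RPKM and with shRNA2 at 0.627 and 0.319 RPKM. Those levels rest on 10 to 21 reads, and a count of 10 has an exact 95% Poisson interval of 4.8 to 18.4 reads, for counting error only. Every knockdown library lay below control A, and control A lay 6.03-fold below control B. CHAC1 fell with shRNA1, with a log2 fold change of -2.63 (SE 0.65, limma adjusted p = 0.0326), and with shRNA2, -2.64 (SE 0.64, limma adjusted p = 0.0334). The value was -1.46 against control A alone and -3.81 against control B alone with either hairpin, and the calls were lost with robust empirical Bayes (adjusted p = 0.166 and 0.14) and with limma-voom on recovered reads (0.0508 and 0.0567).

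DDIT4 (gene ID 54541), also called REDD1, inhibits the growth kinase complex mTORC1. It had 36.5 and 53.4 RPKM in controls A and B, 17.3 and 17.3 RPKM with shRNA1, and 14.4 and 11.2 RPKM with shRNA2. No group overlapped another. DDIT4 fell 2.60-fold with shRNA1, -1.33 on the log2 scale (SE 0.18, limma adjusted p = 0.00563), and 3.51-fold with shRNA2, -1.76 (SE 0.21, limma adjusted p = 0.00409). With control A alone as the reference the values were -1.06 and -1.49, with control B alone -1.60 and -2.03.

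SESN2 (gene ID 83667), sestrin 2, holds mTORC1 down when leucine is short. Its level was 8.21 and 22.5 RPKM in controls A and B, 4.71 and 5.10 RPKM with shRNA1, and 5.61 and 6.19 RPKM with shRNA2. All knockdown libraries were below both controls, with control A much the nearer. SESN2 fell with shRNA1, -1.39 on the log2 scale (SE 0.39, limma adjusted p = 0.0475), and the call was lost when shRNA1 B was left out (0.0538), with no filter (0.0621), without a variance trend (0.0591) and with robust empirical Bayes (0.18). The value with shRNA2 was -1.15 (SE 0.39, limma adjusted p = 0.0833). Relative to control A alone the values were -0.69 and -0.44, and relative to control B alone -2.09 and -1.85.

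**Figure D2:**
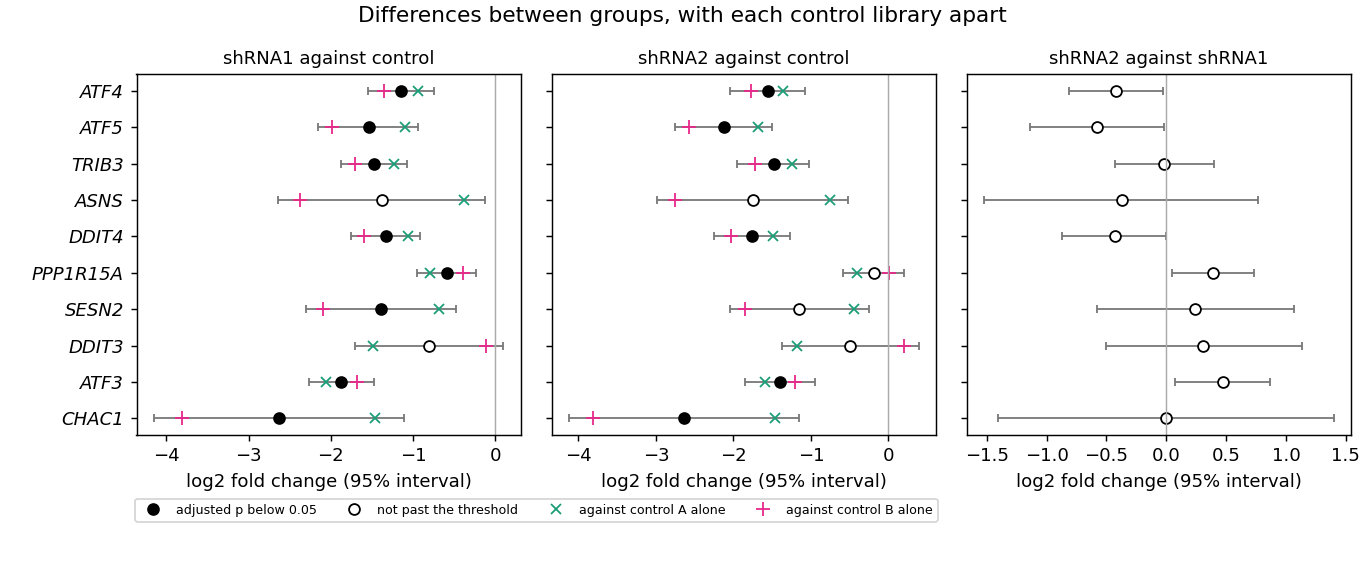
Log2 fold change of each gene in 3 comparisons with its 95% interval (bars); filled points passed an adjusted p of 0.05, crosses and plus signs give the change against control A or control B alone. For ATF4, ATF5, ATF3, TRIB3 and DDIT4 both marks stay below -0.9 with each hairpin, while for DDIT3 the mark against control B alone lies at -0.11 and 0.20.

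Counted by library, every shRNA1 value was below both controls for 10 of 10 genes, where 32.5% of all genes show the same, and every shRNA2 value was below both for 8 of 10, where 31.1% do. DDIT3 and PPP1R15A were the exceptions with shRNA2. Set against control A alone, 10 and 8 of the genes were called lower with shRNA1 and shRNA2, where 20.7% and 9.11% of all genes were; set against control B alone it was 9 and 8, where 14.9% and 7.02% were. The authors' deposited table, made from the same libraries with another test, calls 10 of the 10 genes with shRNA1, where it calls 17.1% of 13002 genes lower, and 8 with shRNA2, where it calls 18.9% lower. In the authors' deposited table the log2 fold changes of ATF4 are -1.16 and -1.57, those of ASNS -1.54 and -1.88, and those of CHAC1 -3.81 and -3.83.

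Between the hairpins, limma in 1 fit of the 6 libraries called 0 of the 10 genes, where 6.1% of all genes were lower and 4.78% higher with shRNA2. At an unadjusted p below 0.05 there were 4 (ATF4, ATF5, ATF3 and PPP1R15A), and limma-voom on recovered reads called 0. Many genes pass that unadjusted cut: ATF5, with a limma p of 0.045, ranked only 2686 by p among 10660 genes. ATF4 differed by -0.42 (95% interval -0.81 to -0.03, adjusted p = 0.164) and ATF5 by -0.58 (-1.14 to -0.02, adjusted p = 0.178), with shRNA2 the lower. ATF3 differed by 0.47 (0.07 to 0.87, adjusted p = 0.132) and PPP1R15A by 0.39 (0.05 to 0.73, adjusted p = 0.134), with shRNA1 the lower. DDIT4 had -0.43 (-0.87 to 0.00), TRIB3 -0.02 (-0.43 to 0.40) and SESN2 0.24 (-0.58 to 1.07). The intervals of DDIT3 (-0.50 to 1.13), ASNS (-1.52 to 0.77) and CHAC1 (-1.41 to 1.40) reached past 1 log2 unit, as did those of SESN2 and ATF5. In the fit of the 4 hairpin libraries, with 9 genes tested, ATF5 was called (adjusted p = 0.0151).

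For 4 of the 10 genes the control libraries lay over 1 log2 unit apart. CHAC1, ASNS and SESN2 were over 1 log2 unit higher in control B, where 0.328% of 10660 genes are, and DDIT3 was over 1 log2 unit higher in control A, where 1.04% are. Control B was 6.03 times control A for CHAC1, 4.05 times for ASNS and 2.74 times for SESN2, and control A was 2.72 times control B for DDIT3. The share of all genes with a wider gap between controls was 0.0657% for CHAC1, 0.141% for ASNS, 0.441% for SESN2 and 0.46% for DDIT3. ATF5 (2.0%), DDIT4 (7.95%) and TRIB3 (11.4%) followed, and ATF4 (15.7%), PPP1R15A (16.5%) and ATF3 (20%) had the narrowest gaps. Of the 10 genes 7 were higher in control B, with a median difference of 0.51 log2 units beside 0.01 for all genes. On log2(RPKM + 0.5), none of the 10 differed by over 1 unit between the libraries of shRNA1 or shRNA2, where 39 and 65 of all 10660 genes did. The widest gaps, 0.52 for shRNA1 and 0.46 for shRNA2, were those of CHAC1. Its hairpin levels lie near the added 0.5, which makes these gaps look smaller than they are. For shRNA1, libraries A and B had 0.653 and 0.304 RPKM (21 and 10 reads). For shRNA2 they had 0.627 and 0.319 RPKM (19 and 10 reads). The tightness of the hairpin pairs therefore cannot be read from CHAC1. With 1 library of each letter in a group, these gaps have no replicate.

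Some genes with known ties to ATF4, and some of neighbouring pathways, also differed between the controls. Of 197 genes in 9 lists, 13 were over 1 log2 unit higher in control B and 4 in control A. Among all genes 0.328% and 1.04% were. Those in control B included PSAT1 and ALDH1L2 of serine and one-carbon metabolism, CTH of cysteine synthesis, GPT2 and ASS1, the amino acid transporters SLC7A11, SLC7A5 and SLC7A1, the tRNA synthetases GARS, MARS and WARS, and PCK2, a mitochondrial enzyme of gluconeogenesis; the remaining one was the death receptor FAS. PSAT1 stood at 78.2 RPKM in control A and 261 RPKM in control B, PCK2 at 28.5 and 80.7 RPKM. Those in control A were HSPA5, SDF2L1 and MANF, chaperone and stress genes of the endoplasmic reticulum, and JUN, an AP-1 factor. HSPA5 stood at 326 and 148 RPKM and JUN at 44.4 and 15.9 RPKM in controls A and B. DDIT3 was also on the control A side, and ASNS, CHAC1 and SESN2 were on the control B side. With each hairpin HSPA5, SDF2L1 and MANF were again higher in library A. DDIT3 was instead 0.11 and 0.09 log2 units higher in library B, with shRNA1 and shRNA2.

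**Figure D3:**
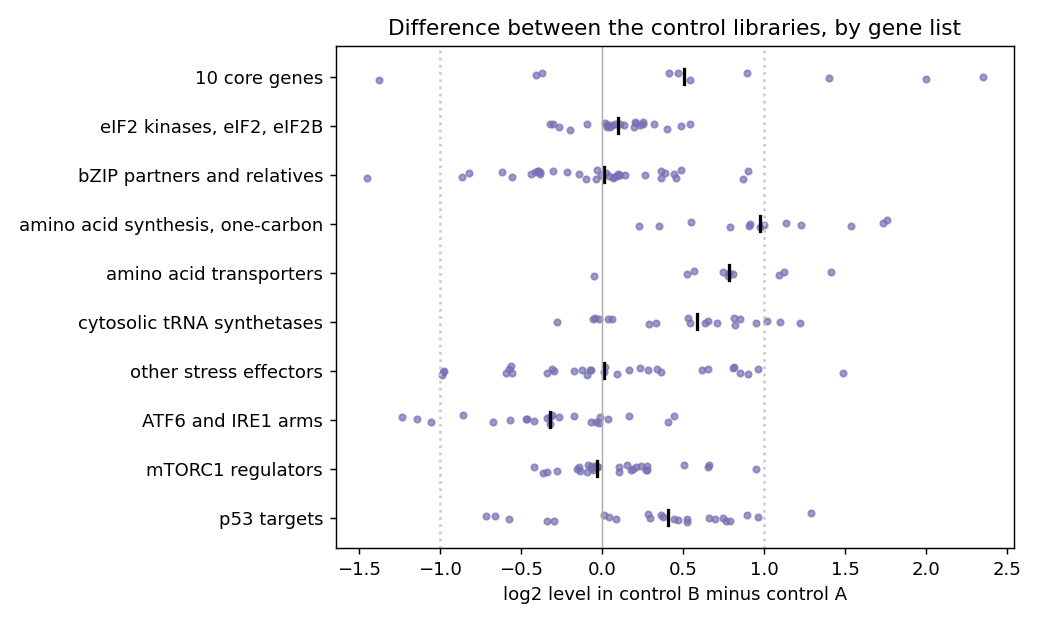
Log2 level in control B minus control A for the 10 genes and 9 lists; each point is a gene, black bars are list medians and dotted lines mark differences of 1. The amino acid synthesis list has a median of 0.97 and the transporters 0.78, while the ATF6 and IRE1 list has -0.32.

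Upstream of ATF4, transcripts of the eIF2 kinases, eIF2 and eIF2B subunits and their regulators were called no more often than other genes. Of 24 tested, 2 fell and 0 rose with shRNA1, beside 8.58% and 9.99% of all genes. With shRNA2 7.61% of all genes fell and 8.12% rose. With shRNA2 limma called 0 lower (3 at an unadjusted p below 0.05, 1 by limma-voom), and DNAJC3, an inhibitor of the kinases, rose by 0.68 (limma adjusted p = 0.0296), a call that ended when control B was left out. With shRNA1 the 2 were EIF2S2, an eIF2 subunit, at -0.73 (0.0134), and EIF2D, a non-canonical initiation factor, at -0.49 (0.0259). The kinase transcripts EIF2AK3 (PERK) and EIF2AK4 (GCN2) had log2 fold changes of 0.13 and -0.01 with shRNA1 and of 0.30 and -0.19 with shRNA2, none called; these kinases were picked by role after values were seen. Medians were 0.01 and -0.05, beside 0.00 for all genes. The state of eIF2 phosphorylation was not measured.

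Among bZIP partners and relatives of ATF4, 11 of 36 fell and 2 rose with shRNA1, and 4 fell and 3 rose with shRNA2. Among all genes tested 8.58% fell and 9.99% rose with shRNA1, and 7.61% fell and 8.12% rose with shRNA2. Medians of the bZIP list were -0.14 with shRNA1 and -0.01 with shRNA2. They were -0.16 and 0.01 without control A, and -0.16 and -0.14 without control B. JUND, an AP-1 factor, fell with both, with log2 fold changes of -1.83 (limma adjusted p = 0.00193) and -1.24 (0.00714). BATF3 also fell with both (-1.57 and -1.85), as did XBP1, the IRE1 target (-0.99 and -0.77). JUN, whose controls A and B stood at 44.4 and 15.9 RPKM, fell with both too, at -1.82 (limma adjusted p = 0.0244) and -1.49 (0.0429). BACH1, a repressor of oxidative stress genes, rose by 0.71 and 0.67, and ATF6B by 0.51 and 0.53. CEBPB, a C/EBP partner of ATF4, fell with shRNA1 (-0.83, limma adjusted p = 0.0246) and had -0.42 with shRNA2 (0.19). CEBPG, another C/EBP partner, had -0.16 and -0.38, not called. The genes CEBPB and CEBPG were picked by role after values were seen.

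Downstream, enzymes of amino acid synthesis and one-carbon metabolism were lower with shRNA2. Of 13 tested 10 fell, with a median log2 fold change of -1.24, against 2 with shRNA1, with a median of -0.71. Among all genes tested 7.61% fell with shRNA2 and 8.58% with shRNA1. At an unadjusted p below 0.05, 13 of these enzymes were lower with shRNA2 and 7 with shRNA1. SHMT2, the mitochondrial serine hydroxymethyltransferase, fell with both hairpins (-0.73 and -0.95), and PHGDH, the first enzyme of serine synthesis, fell with shRNA2 (-1.45, limma adjusted p = 0.0117) and had -0.71 with shRNA1 (0.0764). These values turn on the control libraries. When control A was left out the medians with shRNA1 and shRNA2 were -1.10 and -1.81, and with control B left out -0.25 and -0.68. Between the hairpins 2 of the 13 genes were called lower with shRNA2, MTHFD2 at -1.22 (limma adjusted p = 0.0298) and ALDH18A1 at -0.64 (0.0152). Of all genes 6.1% were called lower in that comparison.

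With both control libraries in the fit, amino acid transporters were called lower mainly with shRNA2. The transporter values turn on the control libraries. Of 10 tested, 1 fell with shRNA1, near the 8.58% of all genes that fell, and 5 with shRNA2, beside 7.61%. The medians were -0.32 and -0.79. In the direct comparison of the hairpins 2 of the 10 were called lower with shRNA2, SLC7A1 at -1.20 (limma adjusted p = 0.0403) and SLC38A2 at -0.74 (0.0363). Of all genes 6.1% were called lower in that comparison. SLC38A1 fell with both, at -1.24 (limma adjusted p = 0.0163) and -1.35 (0.0149), and SLC1A5, a glutamine transporter, fell with shRNA2 (-1.18, 0.0272), as did SLC7A5, SLC7A1 and SLC38A2. SLC7A11, the cystine transporter, was not called, at -0.36 and 0.34, nor between the hairpins, at 0.70 (adjusted p = 0.17). Without control A the transporter medians were -0.85 and -1.12. Without control B the median with shRNA1 turned to 0.18, and with shRNA2 it was -0.46. Of the 20 cytosolic tRNA synthetases 1 fell with each hairpin, DARS with shRNA1, at -0.44 (limma adjusted p = 0.0356), and FARSA with shRNA2, at -0.72 (0.0311). At an unadjusted p below 0.05, 6 were lower with shRNA1 and 9 with shRNA2, and 0 were higher. By limma-voom 2 and 3 were called lower. The synthetase values also turn on the control libraries. The synthetase medians were -0.2 and -0.41. Leaving out control A made them -0.49 and -0.61, and leaving out control B 0.09 and -0.12.

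The remaining effectors of the response were mixed. Of 31 tested, 5 fell and 0 rose with shRNA1, beside 8.58% and 9.99% of all genes. With shRNA2 4 fell and 2 rose, beside 7.61% and 8.12% of all genes. VEGFA, the vascular growth factor, fell with both (-1.59 and -2.68), and EIF4EBP1, which blocks cap-dependent initiation downstream of mTORC1, did so too (-1.10 and -1.32). The others that fell were HERPUD1, JDP2 and TRIB2 with shRNA1 and BBC3 and LONP1 with shRNA2, and those that rose were CDKN1A and RIT1. The list medians were -0.09 with shRNA1 and -0.28 with shRNA2. They were -0.12 and -0.24 without control A, and -0.19 and -0.21 without control B. VEGFA stood at 12.4 and 22.1 RPKM in controls A and B, at 5.42 and 4.93 RPKM under shRNA1 and at 2.16 and 2.18 RPKM with shRNA2.

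In neighbouring pathways calls went in both directions. Of 23 genes of the ATF6 and IRE1 arms of the unfolded protein response, 4 rose and 2 fell with shRNA1, and 3 rose and 1 fell with shRNA2, beside 9.99% and 8.12% of all genes that rose and 8.58% and 7.61% that fell. The medians of these genes were 0.24 with shRNA1 and 0.18 with shRNA2. They were 0.39 and 0.4 without control A, and 0.02 and 0.00 without control B. SEC24D, a vesicle coat protein, rose by 0.65 with each hairpin (limma adjusted p = 0.0114 and 0.0239), and EDEM2, of glycoprotein degradation, by 0.49 (0.0331) and 0.76 (0.0199). Of 30 mTORC1 regulators 2 rose and 2 fell with shRNA1, and 1 rose and 2 fell with shRNA2: SESN3 rose and EIF4EBP1 fell with both, RRAGC rose and RRAGD fell with shRNA1, and MLST8 fell with shRNA2. The mTORC1 medians were -0.02 with shRNA1 and 0.06 with shRNA2. They were -0.01 and 0.02 without control A, and -0.02 and 0.17 without control B. Of the p53 targets limma called 0 of 25 with shRNA1, while 2 were higher and 1 lower at an unadjusted p below 0.05 and limma-voom called 2 higher. With shRNA2 CDKN1A, TP53I3 and BTG2 rose and BBC3 fell, of 24. The medians of the p53 targets were 0.23 with shRNA1 and 0.2 with shRNA2. Leaving out control A made them -0.02 and -0.1, and leaving out control B 0.46 and 0.49. CDKN1A, the p21 cell cycle inhibitor, rose by 0.61 with shRNA2 (adjusted p = 0.046) and BBC3, a pro-apoptotic BH3 protein, fell (-0.80, 0.0154).

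**Figure D4:**
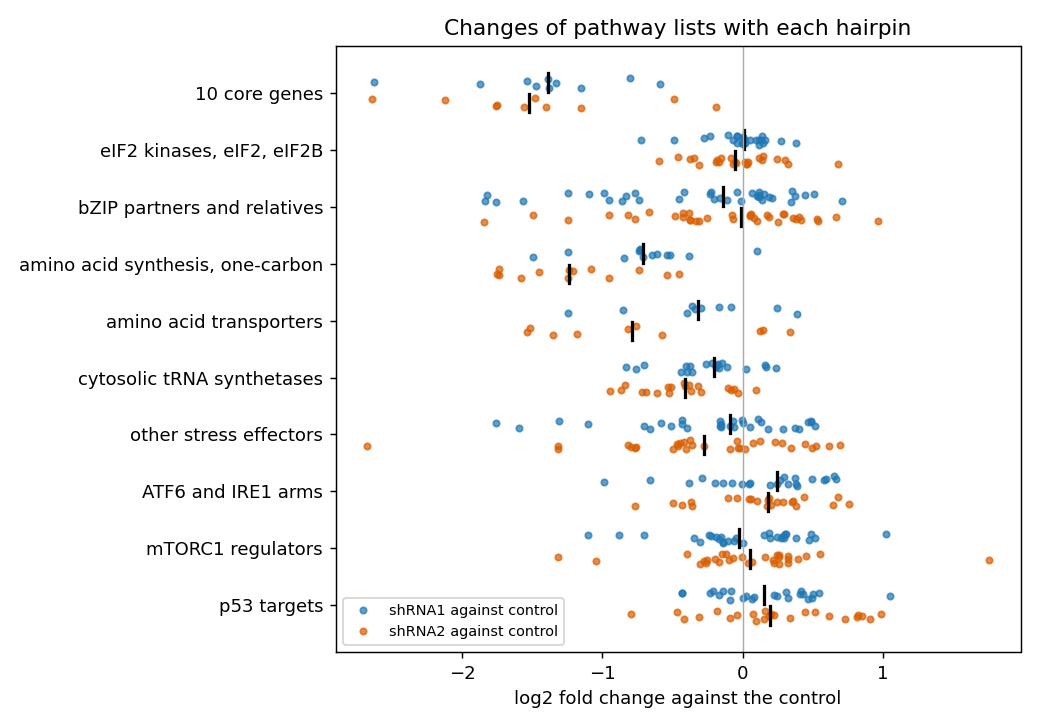
Log2 fold change against the control for each gene (points) of the 10 genes and the 9 lists, with shRNA1 in blue and shRNA2 in orange and list medians as black bars, over genes tested in both comparisons. The 10 genes have medians of -1.39 and -1.52 and the amino acid synthesis enzymes -0.71 and -1.24, while the eIF2 list lies at 0.01 and -0.05.

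Relatives of the 10 genes did not all share their direction; they were picked as relatives after values were seen. SESN3, another sestrin, stood at 2.05 and 1.82 RPKM in controls A and B, at 4.32 and 4.54 RPKM under shRNA1 and at 7.13 and 8.39 RPKM with shRNA2. It rose with shRNA1 by 1.02 (limma adjusted p = 0.00723) and with shRNA2 by 1.76 (0.00245), opposite in sign to SESN2, and SESN1 was not called. TRIB2 fell with shRNA1 (-0.70, adjusted p = 0.0354), had 0.12 with shRNA2 (0.65) and differed between the hairpins by 0.82 (0.0226), while TRIB1 was not called. PPP1R15B, the constitutive partner of the same phosphatase as PPP1R15A, was not called, at 0.02 and 0.14.

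Across the 6 libraries the members followed their own mean profile to different degrees. The Pearson r of each gene with the mean of the other 9, on log2(RPKM + 0.5) and as a description over libraries that fall into groups, was 0.99 for TRIB3, 0.95 for DDIT4, 0.94 for ATF4, 0.93 for ATF5, 0.92 for ATF3 and 0.91 for CHAC1. It was 0.86 for SESN2, 0.81 for ASNS, 0.55 for PPP1R15A and 0.38 for DDIT3. The genes outside the 10 whose profile was most like the mean were NOB1 (r = 0.9949), PKN3 (0.9946), NELFA (0.9885), PRR3 (0.9823), HHEX (0.9746), GPR84 (0.9719), S100P (0.9688) and CCDC34 (0.968), out of 1106 genes with at least 5 RPKM and a range of at least 1 log2 unit, of which 77 had r over 0.9. NOB1 stood at 73.8 and 83.3 RPKM in controls A and B, at 43.3 and 39.9 RPKM under shRNA1 and at 41.3 and 39.7 RPKM with shRNA2. Its control libraries were far closer together than those of ASNS or CHAC1.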

How the data were processed

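The 10 genes, the lists and the tests were chosen with earlier results of these data known. Per the submitters' processing notes, the tools were TopHat2 2.0.11, HTSeq 0.6.1p2, Trim Galore 0.4.0, DESeq 1.18.0 and edgeR 3.8.6 with the build hg19, in roles not stated. RPKM was deposited by the authors, per the file headers, for the 4 libraries of each comparison in 2 tables. Each deposited table also has the authors' log2 fold changes, a test score and p-values. Filter rule and strand setting: not given in the sources used here, so a gene's reads cannot be separated from those of an antisense partner. Control columns were equal in both tables. Table title and letter gave each column its library. Date-like symbols (21) were named through gene IDs, and 2 repeats were dropped. Whole read counts were recovered from the steps of the deposited RPKM for 100% of 13002 genes (within 0.001 of a whole number; 193 had more than 1 solution), and gave depth and limma-voom, which called 7 of the 10 genes with shRNA1 and 6 with shRNA2.

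Genes averaging 1 RPKM or more were taken as log2(RPKM + 0.5). The fit used limma 3.58.1 in R 4.3.3 with a variance trend, two-sided, Benjamini-Hochberg over all genes, threshold 0.05; it was tested on simulated data. Each hairpin was fitted with the control in 4 libraries, the hairpins against each other in 6. Named genes are the 10, TAZ, up to 4 per list, called or not, ranked by whichever p of the 2 control comparisons was larger, and the 8 most like the mean profile; others are named as chosen afterwards or for a control gap. Lists are described by counts and medians, with no test. Alternatives were other pseudocounts, filters, normalization, variance settings, limma-voom, a replicate block, 1 fit of 6 libraries, a fit of the 4 hairpin libraries and each library left out. Promoters are from RefSeq, GRCh38.p14, another build than the files; no other coordinates are given.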

Additional observations from a re-analysis of the deposited data

How the results depend on the processing

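ATF3, ATF5, DDIT4 and TRIB3 stayed called with both hairpins in all 14 alternatives, ATF4 in 13 with shRNA1 and 14 with shRNA2. Of the 10 genes, 8 were called with shRNA1, 5 to 10 with each library left out, the lowest without shRNA1 B and the highest without control B; 6 with shRNA2, 6 to 8 with each library left out; and 0 between hairpins, also with each hairpin library left out, but 1 in the fit of the 4 hairpin libraries. A lone library was assumed to vary like the other group. The labels do not say what libraries of 1 letter share, and with 2 letters the pairing cannot be settled, so the reported fits have no block; deviations by letter correlated at 0.26, 0.42 and 0.37 over genes. With the letter as a replicate block, 10 genes were called with shRNA1, now with ASNS (limma adjusted p = 3.02e-05) and DDIT3 (0.00319), and 8 with shRNA2, now with ASNS (0.00335) and SESN2 (0.00293), and 2 between hairpins, ATF3 (adjusted p = 0.0379) and ATF5 (0.0398). The block also raised the calls over all genes from 1971 to 3780, from 1676 to 4170 and from 1160 to 2396. Without control A or B 3298 and 4397 genes were called with shRNA1, without shRNA1 A or B 807 and 461; with shRNA2, 1 fit of 6 libraries called 2584 and without shRNA2 B 823; between hairpins, leaving out a library left 155 to 444. Signs turned for values not called in the reported fits, of which DDIT3 with shRNA2 was called without control B (limma adjusted p = 9.47e-05). With shRNA2, DDIT3 ranged from -1.18 to 0.20 and PPP1R15A from -0.40 to 0.0085 with each library left out. Between hairpins, TRIB3 ranged from -0.17 to 0.14 (0.07 without shRNA1 A) and CHAC1 from -0.26 to 0.26 (0.23 without shRNA2 B) with each left out, TRIB3 was 0.01 with quantile normalization, and CHAC1 was 0.0012 at a pseudocount of 0.1 and 0.02 with limma-voom. The cause was not tested. CHAC1 was not tested at a filter of 5 RPKM, and its 10 reads in 2 hairpin libraries limit what depth can resolve.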

Other observations

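Genes of the endoplasmic reticulum chaperone system followed the library letter in every group. HSPA5, the main chaperone of that compartment, stood at 326 RPKM in control A and 148 RPKM in control B, at 254 and 202 RPKM in shRNA1 A and B, and at 254 and 201 RPKM in shRNA2 A and B. MANF, a secreted stress protein, stood at 194 and 82.0, 113 and 82.9, and 117 and 74.4 RPKM in the same order. Of 23 genes of the ATF6 and IRE1 arms 13 (56.5%) were higher in A than in B in all 3 groups, against 24.8% of 10660 genes and 0 of the 10 genes above. FAS, a p53 target, was higher in B in every group, at 3.41 and 9.06 RPKM in controls A and B, 4.36 and 10.3 RPKM with shRNA1, and 5.64 and 12 RPKM with shRNA2. These patterns were chosen after values were seen, and what the letters stand for is not given in the sources used here.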
